A study of Homo sapiens with 8 samples.

Results

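Distal H3K4me3 regions are peaks of the mark that lie far from any annotated transcription start site (TSS). Peaks of the 3 H3K4me3 lists that shared at least 1 bp were merged into 39352 regions, of which 17695 were called in all 3 libraries. Of these shared regions, 2535 (14.3%) had their whole span more than 10 kb from every TSS of any gene type, on GENCODE annotation of GRCh37 (hg19), and these are the distal regions described here. Distance was a rule of choice and so was the call in every library. Therefore, the presence of H3K4me3 at these sites is not a finding.

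The study used HCT8 cells, a human ileocecal colorectal adenocarcinoma line. They were controls (mock) or were cultured for 5 h with membrane vesicles (MVs) from E. coli MC1061 or from V. cholerae C6706. The sample titles call the mock cells non treated, while the methods of the study give Tris-HCl buffer as the control. H3K4me3 was measured by ChIP sequencing and open chromatin by FAIRE sequencing, with 1 library for each treatment and assay. There was no replicate check, so differences between treatments compare libraries and have no p-value. The H3K4me3 libraries of mock, E. coli MVs and V. cholerae MVs held 3463875, 10528314 and 13011839 tags, with 38.6%, 53.9% and 56.1% of the tags in called peaks. Of 11 epithelial marker genes, 10, 11 and 10 had an H3K4me3 peak at a TSS in these libraries, and of 6 blood cell markers only CD14 did. Of 9 markers of fibroblasts, endothelium, muscle and neurons, 0 had such a peak in mock and 2, COL1A1 and RBFOX3, did in an MV library.

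H3K4me3 is deposited by the SET1 and MLL methyltransferase complexes, which are drawn to unmethylated CpG-rich DNA, and it marks the promoters of active genes. Enhancers usually carry H3K4me1 with little H3K4me3, but strong enhancers, unannotated promoters and CpG islands away from genes can carry the trimethylated form. FAIRE recovers DNA that is poorly crosslinked to nucleosomes, hence a FAIRE peak marks open chromatin. MVs are released from the outer membrane of Gram-negative bacteria and carry lipopolysaccharide, proteins and nucleic acids.

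Below are the central 300 bp of 5 distal regions, read on the plus strand of GRCh37. Windows that held an annotated exon or lay on a chromosome left out here were not printed, which left 2330 of 2535. In the first set of 3, capitals mark CpG dinucleotides. These are the distal regions with the highest and lowest V. cholerae MVs to mock ratio among those with at least 20 mock tags, and the one with the highest mean H3K4me3 signal among the windows left. The region with the highest mean of all distal regions, in VTI1A, is described below without its sequence.
Near IER5, highest ratio, chr1:181074039-181074338: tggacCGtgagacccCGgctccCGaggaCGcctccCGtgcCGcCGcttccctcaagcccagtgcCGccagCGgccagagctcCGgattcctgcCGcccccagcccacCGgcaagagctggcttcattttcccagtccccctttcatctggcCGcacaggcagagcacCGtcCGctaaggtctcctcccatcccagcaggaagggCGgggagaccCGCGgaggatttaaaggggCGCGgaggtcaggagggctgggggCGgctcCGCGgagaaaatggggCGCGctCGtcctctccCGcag
Near SOCS2, highest mean H3K4me3 signal of the windows left, chr12:93987562-93987861: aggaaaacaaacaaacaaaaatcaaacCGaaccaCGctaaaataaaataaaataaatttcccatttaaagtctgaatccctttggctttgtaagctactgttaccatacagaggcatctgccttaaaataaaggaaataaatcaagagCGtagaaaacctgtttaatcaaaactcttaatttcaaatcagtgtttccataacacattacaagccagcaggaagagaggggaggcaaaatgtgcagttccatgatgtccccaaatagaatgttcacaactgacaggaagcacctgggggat
Near HPGD, lowest ratio, chr4:175370567-175370866: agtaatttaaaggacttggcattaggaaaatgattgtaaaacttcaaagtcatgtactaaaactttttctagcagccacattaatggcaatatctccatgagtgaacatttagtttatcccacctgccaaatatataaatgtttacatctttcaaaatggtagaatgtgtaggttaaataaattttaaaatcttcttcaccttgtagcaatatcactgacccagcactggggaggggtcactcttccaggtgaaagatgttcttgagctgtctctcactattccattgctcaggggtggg

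The IER5 window held 27 CpG dinucleotides, whereas the SOCS2 window held 3 and the HPGD window 0. In the second set, capitals mark matches to the AP-1 motif TGANTCA, and the windows are those with the most matches among the windows left, with ties settled by mean signal. AP-1 is a dimer of FOS and JUN family proteins that binds many enhancers.
In an intron of PCCA, 3 matches, chr13:101044983-101045282: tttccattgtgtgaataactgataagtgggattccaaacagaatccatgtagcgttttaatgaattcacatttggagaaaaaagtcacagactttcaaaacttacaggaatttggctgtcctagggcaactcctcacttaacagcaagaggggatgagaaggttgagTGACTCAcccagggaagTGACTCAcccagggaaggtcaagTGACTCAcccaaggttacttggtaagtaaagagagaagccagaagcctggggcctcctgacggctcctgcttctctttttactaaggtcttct
Nearest to EFNB2, 2 matches, chr13:107001750-107002049: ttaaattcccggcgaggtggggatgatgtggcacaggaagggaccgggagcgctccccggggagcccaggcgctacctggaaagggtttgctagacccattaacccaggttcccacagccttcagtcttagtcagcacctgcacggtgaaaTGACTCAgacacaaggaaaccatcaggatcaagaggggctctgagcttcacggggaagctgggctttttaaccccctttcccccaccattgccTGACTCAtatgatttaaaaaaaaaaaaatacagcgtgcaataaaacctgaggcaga

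The distal regions were weak and narrow. Signal is given as the normalized tag count, which is tags per 10000000 tags of the library, summed over the called peaks of a region. The median was 34.6 in mock, 39.9 after E. coli MVs and 30.0 after V. cholerae MVs. The 12524 shared regions within 1 kb of a TSS had medians of 236.7, 360.9 and 397.3 in the same order. Median width of the called peak was 764 bp, 1175 bp and 1008 bp at distal regions, and 2028 bp, 2454 bp and 2477 bp near a TSS. In mock, 31.6% of the distal regions were at the smallest width the peak caller gave, 500 bp, against 9.07% after E. coli MVs and 16.8% after V. cholerae MVs. The distal regions together held 1.26%, 1.35% and 1.13% of all tags of the 3 libraries, on 2.44, 3.44 and 3.04 Mb of called peak. Enrichment over input had medians of 11.7-fold, 8.07-fold and 7.83-fold at distal regions. Depth behind these values was low, with a median of 12 tags per distal region in mock, 42 after E. coli MVs and 39 after V. cholerae MVs.

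The strongest distal regions reached the signal seen near TSSs. The highest mean signal lay at chr10:114276773-114297405, over introns and an exon of VTI1A, which encodes a SNARE protein of Golgi and endosome transport. It had a normalized tag count of 2046.8 in mock, 1770.5 after E. coli MVs and 1239.7 after V. cholerae MVs, and its called peak covered 19138 bp, 19745 bp and 19340 bp. Mock was the highest and V. cholerae MVs the lowest, with a log2 ratio of -0.72 between them (95% interval from counting error, -0.85 to -0.59). At chr12:93984313-93991109, 15479 bp from the nearest TSS, that of SOCS2, signal was 724.6, 806.4 and 611.0. SOCS2 encodes a suppressor of cytokine and growth hormone signalling. The log2 ratios of this region to mock were 0.15 (-0.05 to 0.36) after E. coli MVs and -0.25 (-0.45 to -0.04) after V. cholerae MVs. Between the MV libraries the log2 ratio of V. cholerae MVs to E. coli MVs was -0.40 (-0.54 to -0.26). The interval of V. cholerae MVs excluded 0 against mock and against E. coli MVs. At chr1:33591402-33593994, between genes and nearest to AZIN2 among protein-coding genes, the values were 470.6, 502.5 and 452.7. AZIN2 encodes an antizyme inhibitor of polyamine metabolism. Both intervals of this region included 0.

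The region with the fifth mean signal was CpG-rich and showed another pattern. It lay at chr22:41808505-41811328, nearest to TEF, a PAR bZIP transcription factor gene of the circadian output, with signal of 213.6, 411.3 and 507.2. Both MV libraries were above mock, with log2 ratios of 0.95 (0.59 to 1.32) and 1.25 (0.90 to 1.61).

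FAT1 was the protein-coding gene nearest to the most distal regions. FAT1 encodes a giant atypical cadherin that restrains Wnt and Hippo pathway output. Its 10 regions spread over 268.84 kb of chromosome 4 and included 3 of the 5 widest in mock. The strongest, at chr4:187604196-187612467 in an intron of FAT1, had signal of 499.5 in mock, 423.6 after E. coli MVs and 257.5 after V. cholerae MVs. The V. cholerae MVs library was the lowest, with a log2 ratio to mock of -0.96 (-1.22 to -0.68). The other wide regions of the group, at chr4:187743075-187751119 and chr4:187851086-187859221, had log2 ratios of -0.80 (-1.17 to -0.42) and -0.59 (-0.89 to -0.28) after V. cholerae MVs. Of the 10 regions, 2 were higher than mock after E. coli MVs and 2 after V. cholerae MVs, while 2, 2 and 3 overlapped a FAIRE peak in mock, E. coli MVs and V. cholerae MVs. Of all distal regions, 28.3% were higher with both MVs, 21.5% with E. coli MVs alone and 5.72% with V. cholerae MVs alone. The same shares of all shared regions were 70.0%, 10.9% and 3.18%. A FAIRE peak overlapped 15.9%, 38.8% and 36.4% of all distal regions in the 3 libraries.

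Most distal regions lay alone. The nearest TSS of any gene was at a median of 21349 bp, and 371 distal regions were more than 50 kb from every TSS. The farthest was at chr8:46950275-46950927, between genes and 509784 bp from a TSS, with weak signal of 17.3, 8.55 and 9.22. The midpoint fell in an intron of a protein-coding gene for 49.1%, between genes for 38.3%, in another gene type for 11.0% and in an exon of a protein-coding gene for 1.58%. The distal regions were nearest to 1786 protein-coding genes, of which 1320 had 1 region and 25 had at least 5. After FAT1, the genes with the most regions were TCF7L2 with 9, MSX2 and RAD51B with 8 each, and KLF4 and PRDM1 with 7 each. These genes were picked by count after the values were seen. For 29.3% of the distal regions, another one lay within 50 kb. Of the nearest genes, 73.4% had an H3K4me3 peak at a TSS in all 3 libraries, compared with 59.9% of the 20149 protein-coding genes annotated.

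At the edge of the distance rule, the nearest region inside was in an intron of ABR at 10015 bp with signal of 80.8, 145.3 and 136.8, followed by PTK2 at 10018 bp with 40.4, 56.0 and 18.4, and one in RASSF3 at 10031 bp with 80.8, 78.8 and 56.9. Just outside were ME3 at 9998 bp with 31.8, 58.9 and 40.7, ZFAT at 9992 bp with 14.4, 13.3 and 41.5, and TMEM160 at 9988 bp with 26.0, 19.0 and 14.6.

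The MV to mock ratio at distal regions was compared with that near TSSs, since the study asked how MVs affect H3K4me3. At distal regions the log2 ratio had a median of -0.00 after E. coli MVs and -0.40 after V. cholerae MVs, and the median of V. cholerae MVs against E. coli MVs was -0.33. These values chose the regions in part, through the call in every library, and are a description. Within 1 kb of a TSS the medians were 0.52, 0.63 and 0.11. The log2 ratio of tags per 1000 bp of called peak had distal medians of -0.49 after E. coli MVs and -0.71 after V. cholerae MVs. All 17695 shared regions had medians of 0.44 and 0.47 against mock, and set against those the distal medians were -0.44 and -0.87. The scale of the ratio moves with the share of tags in peaks, which was higher in both MV libraries. When tags were scaled to those in all called peaks, the distal medians were -0.48 and -0.94. The calls of direction below therefore depend on the scaling.

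Individual distal regions moved both ways. After E. coli MVs, 264 (10.4%) were at least 2-fold higher than mock and 229 (9.03%) at least 2-fold lower, while 14.8% and 3.05% of all shared regions were. After V. cholerae MVs, 210 were at least 2-fold higher and 620 (24.5%) at least 2-fold lower, compared with 23.4% and 7.39% of all shared regions. The 620 lower regions included 290 (46.8%) at the smallest width in the V. cholerae MVs library, with a median width of 870 bp in mock and 630 bp after V. cholerae MVs. Tags outside a called peak are not in the lists, so a narrower call lowers the summed signal. All 620 were also lower per 1000 bp of called peak, with a median log2 ratio of -1.05. So were 2279 of all 2535 distal regions, and the median over all of them was -0.71. The 620 were chosen by a low ratio of the same tags, so this is a description. The 264 regions higher after E. coli MVs had a median width of 500 bp in mock and 1781 bp after E. coli MVs. Of these, 168 were lower than mock per 1000 bp of called peak. The 210 higher after V. cholerae MVs had median widths of 500 bp and 1658 bp, and 85 of them were lower per 1000 bp. Mock was the shallowest library, with a lowest called signal of 11.5 against 7.60 and 6.92. The part of this floor in the ratios per 1000 bp was not tested. Beyond counting error, 303 distal regions (12.0%) were higher after E. coli MVs and 192 (7.57%) lower, against 52.0% and 2.81% of all shared regions. After V. cholerae MVs, 262 (10.3%) were higher and 592 (23.4%) lower, against 53.4% and 8.50%. When tags were scaled to those in all called peaks, 97 distal regions (3.83%) were at least 2-fold higher and 586 (23.1%) at least 2-fold lower after E. coli MVs, against 4.48% and 7.72% of all shared regions. After V. cholerae MVs they were 79 (3.12%) and 1202 (47.4%), against 7.95% and 15.5%. On that scale 87 (3.43%) were higher and 604 (23.8%) lower beyond counting error after E. coli MVs, against 14.9% and 17.3%. After V. cholerae MVs 96 (3.79%) were higher and 1115 lower, against 23.8% and 27.3%. On the scale of all tags, 158 distal regions (6.23%) were higher with both MVs and 156 (6.15%) lower with both, beyond counting error, against 46.3% and 2.17% of all shared regions. Higher after E. coli MVs and lower after V. cholerae MVs were 8, and 0 were the reverse, against 0.0961% and 0.00565%.

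**Figure D1:**
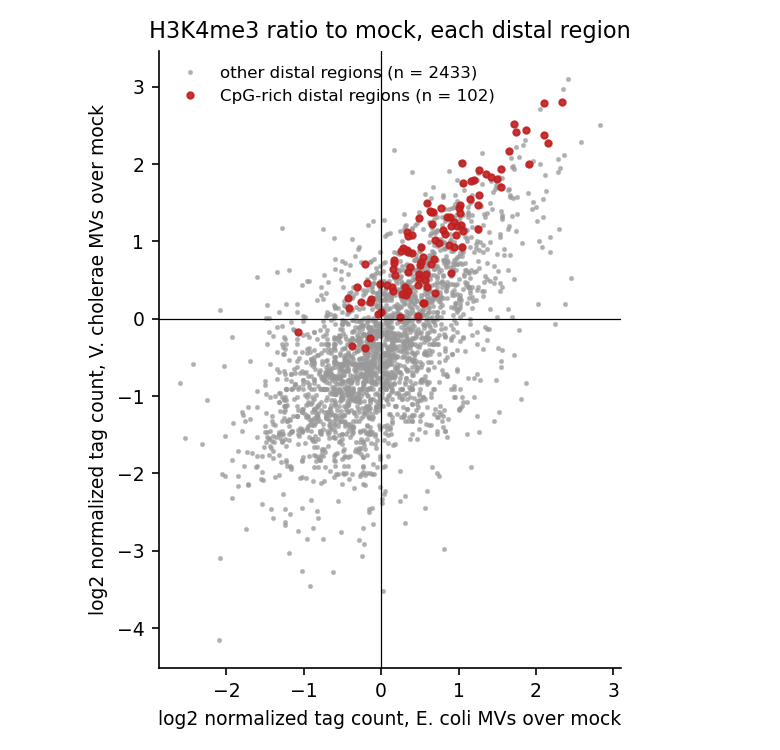
Log2 ratio of normalized tag count to mock for each distal region, E. coli MVs on the horizontal axis and V. cholerae MVs on the vertical axis, with CpG-rich regions in red. Both ratios share the mock library. The 102 CpG-rich regions sit mostly in the upper right, with medians of 0.59 and 0.92, and the 2433 others center at -0.02 and -0.45.

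Base composition separated the distal regions. The central 300 bp had a median GC content of 43.0% and a CpG observed to expected ratio of 0.21, compared with 62.7% and 0.71 near a TSS. A window was called CpG-rich at a GC content of at least 55% and a CpG ratio of at least 0.65, and 102 distal regions (4.02%) were. Their median signal was 44.75 in mock, 77.4 after E. coli MVs and 103.75 after V. cholerae MVs. The medians of the log2 ratio to mock were 0.59 and 0.92, above those of all distal regions. Across GC content the distal median after V. cholerae MVs ran from -0.79 under 40% GC, in 881 regions, to 0.93 at 60% and over, in 198 regions. The same classes within 1 kb of a TSS ran from -0.12 to 0.85. After E. coli MVs the distal medians ran from -0.17 to 0.59 and those near a TSS from 0.16 to 0.64. Thus, for summed signal, distal regions were below start-site regions at low GC content and near them at high GC content. Per 1000 bp of called peak they were below in both. At 60% GC and over, the distal medians on that scale were 0.02 after E. coli MVs and 0.20 after V. cholerae MVs, against 0.34 and 0.51 near a TSS, and under 40% GC they were -0.55 and -0.86 against -0.19 and -0.37. The part of GC content in these ratios, as a property of the DNA or of the libraries, was not tested.

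**Figure D2:**
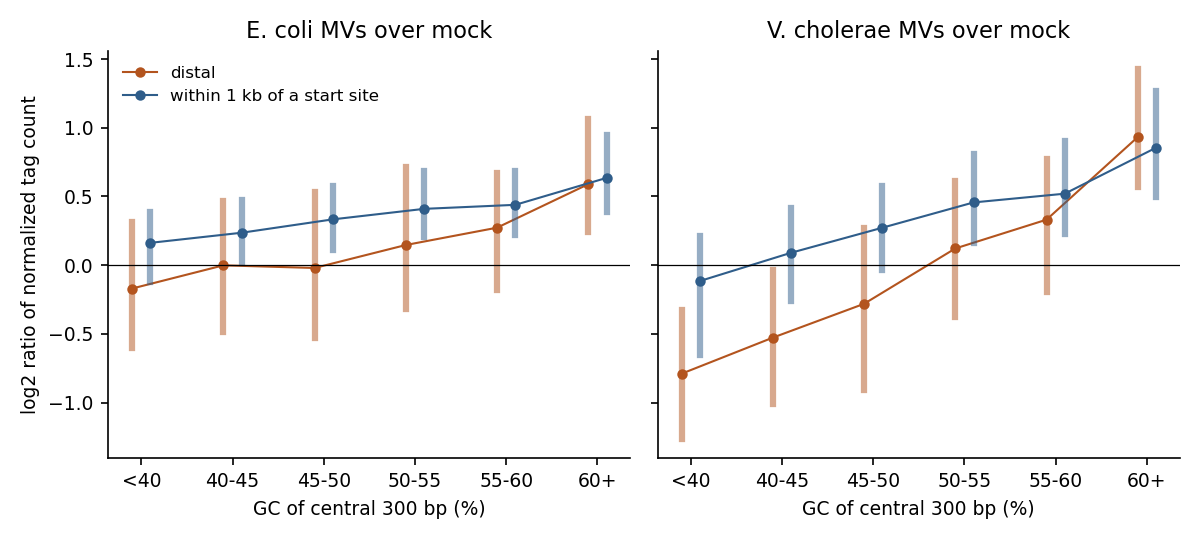
Median log2 ratio to mock (dots) and middle 50% of regions (bars) in classes of GC content of the central 300 bp, for E. coli MVs (left) and V. cholerae MVs (right). Distal medians run from -0.17 to 0.59 and from -0.79 to 0.93, and meet those of regions within 1 kb of a TSS in the highest class.

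The ratio also differed between classes of mean signal. The mean is over all 3 libraries and includes the MV signal, so a high mean favours a high ratio by construction. A choice by mock signal favours a low ratio. Distal regions with at least 20 mock tags had medians of -0.13 after E. coli MVs and -0.58 after V. cholerae MVs. Among distal regions with a mean signal under 20, the median log2 ratios were -0.47 after E. coli MVs and -0.77 after V. cholerae MVs, and among the 68 over 160 they were 0.28 and 0.44. In the class between 80 and 160, the 269 distal regions had medians of 0.16 and -0.17, while 1312 regions within 1 kb of a TSS had 0.73 and 1.07. In each of the 5 classes of signal, the distal median was below that of start-site regions for both MVs. A region had to be called in mock to be counted, and mock was the shallowest library, with a lowest called signal of 11.5 against 7.60 and 6.92. The part of this floor in the low ratios of weak regions was not tested.

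Among distal regions with at least 20 mock tags, those with the highest ratios were GC-rich in most cases. Without that limit on depth, the 264 regions at least 2-fold higher after E. coli MVs had a median GC content of 47.5% and the 210 after V. cholerae MVs 57.3%, against 43.0% of all distal regions. At chr1:181073108-181075268, 15272 bp from IER5, an immediate early response gene, signal was 63.5 in mock, 170.0 after E. coli MVs and 226.7 after V. cholerae MVs. Both MV libraries were above mock, with log2 ratios of 1.42 (0.78 to 2.13) and 1.84 (1.21 to 2.53). At chr7:75267311-75269412, in an intron of HIP1, a clathrin adaptor gene, signal was 92.4, 255.5 and 296.7 and the ratios were 1.47 (0.94 to 2.04) and 1.68 (1.16 to 2.25). In an intron of EGFR, the epidermal growth factor receptor gene, the region at chr7:55144951-55147961 had 57.7, 139.6 and 159.9. Its log2 ratio after E. coli MVs was 1.27 (0.59 to 2.03) and after V. cholerae MVs 1.47 (0.80 to 2.21). The region in an exon of PRDM12, a gene for a regulator of pain-sensing neurons, had 72.2, 173.8 and 218.3. The region in an intron of MYL3, a myosin light chain gene, had 63.5, 133.9 and 202.1, and the one in an exon of CCDC92B had 109.7, 242.2 and 320.5. In these 6 regions V. cholerae MVs were the highest and mock the lowest. The GC content of their windows was between 61.3% and 81.7%. A region in an intron of CYSTM1 was also among the highest after E. coli MVs, with 92.4, 221.3 and 145.3, and its window had a GC content of 41.7%. Per 1000 bp of called peak its log2 ratios to mock were -0.32 and -0.33.

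With the same limit of at least 20 mock tags, the lowest ratios were at CpG-poor regions without FAIRE peaks in most cases. At chr4:175369268-175372164, 42448 bp from HPGD, which encodes the enzyme that degrades prostaglandin E, signal was 150.1 in mock, 35.1 after E. coli MVs and 8.45 after V. cholerae MVs. The log2 ratios were -2.10 (-2.74 to -1.46) and -4.15 (-5.24 to -3.19), and per 1000 bp of called peak they were -0.93 and -1.64. At chr10:114152670-114156772, in an exon of ACSL5, an acyl-CoA synthetase gene of the intestinal epithelium, the values were 150.1, 152.0 and 13.1. In summed signal only V. cholerae MVs were low here, at -3.52 (-4.41 to -2.71). The called peak was 2843 bp, 4102 bp and 500 bp wide. Per 1000 bp of called peak the log2 ratios were -0.51 after E. coli MVs and -1.01 after V. cholerae MVs. The regions in PKN2-AS1, KALRN and MACROD2 had log2 ratios after V. cholerae MVs of -3.45, -3.28 and -3.26, and each was called at 500 bp in that library. After E. coli MVs the lowest at this depth was at chr6:36031541-36033138 in an intron of MAPK14, the gene for the p38 alpha kinase, with 60.6, 10.4 and 20.8. Both MV libraries were lower than mock, at -2.54 (-3.74 to -1.42) and -1.54 (-2.42 to -0.65). Beside HPGD, regions in HSPG2 and TRAPPC9 and one near TNR were the next lowest with at least 20 mock tags, at log2 ratios of -2.26, -2.08 and -2.04.

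V. cholerae MVs and E. coli MVs differed most at the UBE2H intron. UBE2H encodes a ubiquitin-conjugating enzyme. Signal at chr7:129545684-129548677 was 66.4 in mock, 116.8 after E. coli MVs and 8.45 after V. cholerae MVs, with peak widths of 951 bp, 2993 bp and 500 bp. The log2 ratio of V. cholerae MVs to E. coli MVs was -3.79. Among regions with at least 20 mock tags, those of ACSL5, SCAF11, SH3D19 and PDSS2 followed at -3.54, -2.95, -2.81 and -2.68. In the other direction and with the same limit, the region near TNR was the highest at 1.42, followed by HSPG2 at 1.21, MAPK14 at 1.00, SLC38A6 at 0.91 and OR1D5 at 0.89. Between the MV libraries, 65 distal regions (2.56%) were at least 2-fold higher after V. cholerae MVs and 447 (17.6%) at least 2-fold lower, against 1.48% and 5.51% of all shared regions. Beyond counting error, 194 (7.65%) were higher and 794 (31.3%) lower, against 27.8% and 15.8%.

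Open chromatin was present at fewer distal regions than start sites in each library. A FAIRE peak overlapped 403 distal regions (15.9%) in mock, 983 (38.8%) after E. coli MVs and 924 (36.4%) after V. cholerae MVs. Of all shared regions, 31.7%, 78.8% and 65.4% had one, and within 1 kb of a TSS 37.8%, 93.1% and 76.0%. Those 1 to 10 kb from a TSS had 18.3%, 49.4% and 42.8%. At a mean H3K4me3 signal under 20, distal shares were 10.9%, 24.1% and 25.1%, against 13.7%, 35.5% and 32.3% near a TSS. Between 80 and 160 they were 26.8%, 53.9% and 52.4%, against 32.8%, 89.4% and 62.8%. Regions near a TSS were also wider, and the part of width was not tested. FAIRE was a separate assay that the rule did not use. The FAIRE libraries held 14474665, 7888670 and 12077180 tags, of which 7.12%, 37.3% and 13.9% fell in peaks, and their lists held 66436, 94231 and 79591 peaks. The part of these gaps in the shares was not tested. No FAIRE peak in any library was found at 50.8% of distal regions, against 17.1% of all shared regions. In all 3 libraries 254 (10.0%) had one, against 26.5%, and 454 (17.9%) had one with both MVs and not in mock, against 35.5%. The 254 regions had median FAIRE signal of 12.4 in mock, 58.3 after E. coli MVs and 33.9 after V. cholerae MVs. The 4697 shared regions with a FAIRE peak in every library had 13.8, 124.2 and 43.1.

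FAIRE overlap moved with GC content at distal regions. Under 40% GC, a FAIRE peak overlapped 6.36% in mock, 11.9% after E. coli MVs and 15.1% after V. cholerae MVs, and at 60% and over 38.4%, 96.5% and 68.2%. CpG-rich distal regions had 35.3%, 91.2% and 61.8%. The 371 distal regions more than 50 kb from a TSS had the lowest shares of the distance classes, at 9.70%, 25.6% and 27.0%. In the 634 regions of lowest mean H3K4me3 signal the shares were 10.4%, 25.6% and 25.9%, and in the 633 of highest signal 24.0%, 53.1% and 49.9%. The H3K4me3 ratio followed the same split. Regions without FAIRE peaks had median log2 ratios to mock of -0.14 after E. coli MVs and -0.70 after V. cholerae MVs, whereas the 254 with a peak in every library had 0.32 and 0.28. Median GC content of these groups was 39.3% and 51.5%.

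Regions open in every library included some with high FAIRE signal. A region in an intron of RXRA, the gene for a retinoid receptor that pairs with many nuclear receptors, had FAIRE signal of 37.4, 434.8 and 66.3 and H3K4me3 signal of 101.0, 104.5 and 168.3. Regions in introns of COL23A1 and LRRC75A and one near PDGFA also had high FAIRE signal, at 310.6, 268.7 and 297.9 after E. coli MVs. They had 74.6, 25.6 and 29.7 in mock, and 96.9, 113.4 and 80.3 after V. cholerae MVs.

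Motif matches in the central 300 bp differed between distal and start-site regions. A match to the AP-1 motif TGANTCA was found in 19.4% of distal windows and 5.23% of windows within 1 kb of a TSS. The letters TTTATG of CDX factors, which specify intestinal epithelium, were in 23.5% against 6.58%, and AGATAA of GATA factors in 22.6% against 7.51%. The GC box GGGCGG, bound by SP1, was in 9.70% against 50.1%. The 2636 shared regions 1 to 10 kb from a TSS were closer to the distal ones. Their shares were 16.4% for AP-1, 18.7% for CDX, 20.7% for GATA and 14.3% for the GC box. Such shares varied with base composition. Within 45% to 50% GC content, AP-1 matches were in 21.6% of 462 distal and 8.88% of 991 start-site windows, whereas GATA matches were in 17.7% and 16.5%. CDX matches were in 19.7% and 14.6% of these windows. Distal regions with an AP-1 match had median log2 ratios to mock of -0.05 and -0.55, and those without one 0.02 and -0.36. AP-1 matches were about as common with a FAIRE peak in any library (19.2%) as without (19.6%). Matches were searched on both strands, can overlap each other, and are not evidence of binding.

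Distal regions were then described near 4 lists of genes. Of all 20149 protein-coding genes annotated, 1786 were the nearest gene of a distal region. Of 24 regulators of intestinal epithelium, 11 were the nearest gene of 25 distal regions, with median log2 ratios of -0.17 after E. coli MVs and -0.42 after V. cholerae MVs. All distal regions had -0.00 and -0.40. Beyond counting error, 6 of the 25 were higher and 1 lower after E. coli MVs, and 4 were higher and 8 lower after V. cholerae MVs. The same calls were made at 12.0% and 7.57% of all distal regions after E. coli MVs, and at 10.3% and 23.4% after V. cholerae MVs, beside 52.0%, 2.81%, 53.4% and 8.50% of all shared regions. A region 123414 bp from GATA6, an endoderm and gut transcription factor gene, had signal of 40.4, 80.7 and 76.9, and another 70257 bp away had 28.9, 81.7 and 93.8. Both had higher signal with each MV, and the second had log2 ratios of 1.50 (0.55 to 2.61) and 1.70 (0.77 to 2.80). A further GATA6 region, 105561 bp away, had 49.1, 29.4 and 11.5, after V. cholerae MVs the lowest. Of the 4 regions nearest to GATA6, 3 were higher than mock after each MV, so the 4 did not all share a direction. Among 7 regions nearest to KLF4, a gene of goblet cell and surface epithelium differentiation, 3 were higher than mock after E. coli MVs and 4 after V. cholerae MVs. Of all distal regions, 28.3% were higher with both MVs, 21.5% with E. coli MVs alone and 5.72% with V. cholerae MVs alone. The same shares of all shared regions were 70.0%, 10.9% and 3.18%. The region in an intron of GRHL2, a gene of epithelial junctions, had 150.1, 144.4 and 102.2.

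Of 20 Wnt and crypt genes, 9 were nearest to 23 distal regions, with medians of 0.28 and -0.13. TCF7L2, the gene for the main TCF factor of the intestine, had 9 regions, with signal in mock between 17.3 and 121.3. They lay between 30796 bp and 234343 bp from it, and some were in introns of VTI1A. Of the 9, 6 were above mock after E. coli MVs and 5 after V. cholerae MVs. These counts stand beside the shares of all distal and all shared regions given for KLF4. The region at chr10:114552428-114554000, in an intron of VTI1A and 156006 bp from TCF7L2, had 23.1, 30.4 and 52.3. Its log2 ratio after V. cholerae MVs was 1.18 (0.12 to 2.45), on 8 tags in mock, and -0.47 per 1000 bp of called peak. The strongest in mock, at chr10:114845366-114848322, had 121.3, 85.5 and 69.2, with a log2 ratio of -0.81 (-1.35 to -0.25) after V. cholerae MVs. EPHB3, the gene for a crypt positioning receptor, had 1 region, 35682 bp away, with 40.4, 110.2 and 126.0. It was higher with both MVs, at 1.45 (0.64 to 2.36) and 1.64 (0.85 to 2.54), on 14 tags in mock. Per 1000 bp of called peak its log2 ratios were 0.59 and -0.04. Within RNF43, which encodes a ubiquitin ligase that removes Wnt receptors, 3 regions had 89.5, 77.9 and 46.2 in mock and 35.4, 51.5 and 25.4 after V. cholerae MVs. All 3 were lower there in summed signal, and only the first beyond counting error, at -1.34 (-2.03 to -0.63). Per 1000 bp of called peak the first was at -0.00 and the others at -0.36 and -1.13.

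Of 22 AP-1 and immediate early genes, FOSL2 and MYC were nearest to 6 distal regions. The list did not hold IER5, whose distal region is described above. The region 13147 bp from FOSL2, a FOS family gene, had 17.3, 40.8 and 59.9. Its log2 ratio after V. cholerae MVs was 1.79 (0.60 to 3.28), on 6 tags in mock, and 0.42 per 1000 bp of called peak. The other 3 regions nearest to FOSL2 lay in introns of BABAM2 and had log2 ratios after V. cholerae MVs between -0.76 and -0.42. Both regions nearest to MYC, the growth regulator gene, had weak signal, between 13.8 and 26.0 over the 3 libraries. None of 24 NF-kB feedback and inflammatory genes was the nearest protein-coding gene of a distal region, beside 1786 of all 20149 protein-coding genes.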

How the data were processed

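H3K4me3 ChIP and FAIRE libraries of HCT8 cells were used as the peak lists the authors deposited, 1 library per treatment and assay. The 2 input libraries were not analysed here. Per the file headers and the submitters' processing notes, reads were aligned to hg19 and peaks were called per library, not pooled, by HOMER in histone mode against input. The notes give HOMER 4.7.2, Bowtie 1.1.2 and SAMtools 1.3.1, whereas the methods of the study name Bowtie 2 and MACS beside HOMER. Each deposited list gives the authors' normalized tag count, a signal in tags per 10000000 tags. The authors also deposited the tag count of each peak (scaled to input in both MV H3K4me3 lists), input tags as a signal, the ratio of fold over input, and a p-value over input that was not used.

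Peaks sharing at least 1 bp were merged in Python 3.11.15 (pandas 2.3.3, NumPy 2.4.6, SciPy 1.17.1, pysam 0.24.0), and distances were taken to 221337 TSSs of GENCODE 44 lifted to GRCh37. No peak reached past a chromosome end of that build. A region's signal was the sum over its called peaks, with no pseudocount. Tags were recovered from the normalized tag count and the library total, and all lay within 0.0721 of a whole number. Intervals of a ratio between libraries are exact 95% binomial (Clopper-Pearson) intervals on those tags, and a region was called beyond counting error where its interval excluded 0. Intervals of shares are of the same kind. They cover counting error only, and tags may include PCR copies. The interval script was tested on simulated tags. With 1 library per group no test between treatments was made.

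Members and gene lists were chosen with earlier results of these data known. Regions named are the 5 highest mean signals, the 5 widest in mock, the 3 farthest from a TSS, the 5 highest and 5 lowest of each ratio among those with at least 20 mock tags, the 5 highest FAIRE signals among those with a FAIRE peak in all 3 libraries, the 3 nearest to each side of the 10 kb limit, and those nearest to listed genes. Of these, the ones the results turn on are described. Some named regions are not reported here. Classes of GC content, calls under another scaling and printed windows were added after seeing the data. The share of repeats was not computed.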

Additional observations from a re-analysis of the deposited data

Results flagged for a closer look

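Of the 2535 distal regions, 8 were higher than mock after E. coli MVs and lower than mock after V. cholerae MVs, each beyond counting error, and 0 showed the opposite order. Of all 17695 shared regions, 17 (0.0961%) showed the first order and 1 (0.00565%) the opposite. The difference between the MV libraries was not tested, because each treatment had 1 library. The log2 ratio of V. cholerae MVs to E. coli MVs was -3.79 in the intron of UBE2H (66.4 in mock, 116.8 after E. coli MVs and 8.45 after V. cholerae MVs). It was -3.07 in the intron of PTPRR, with 31.8, 71.2 and 8.45, and -2.73 in the intron of TPD52, with 40.4, 96.9 and 14.6. In the intron of ABCB5 it was -2.60, with 26.0, 56.0 and 9.22. The region near ARHGAP12 had -2.17 and that in the intron of RAB10 also -2.17, from 34.6, 69.3 and 15.4 and from 37.5, 76.0 and 16.9. The intron of RORA had -2.16, with 60.6, 110.2 and 24.6, and the region whose nearest protein-coding gene was PHLDA1 had -1.98, with 43.3, 76.0 and 19.2. In these 8 regions the called peak was between 1858 bp and 2993 bp wide after E. coli MVs and between 500 bp and 772 bp after V. cholerae MVs. Per 1000 bp of called peak, E. coli MVs were below mock in all 8, as they were in 2192 of all 2535 distal regions. When tags were scaled to those in all called peaks, the 8 regions were still above mock after E. coli MVs but 0 of them beyond counting error.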

How the results depend on the processing

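Each result was recomputed with 1 choice changed, which gave 72 medians and shares, of which 21 stayed within the 95% interval of the reported value, 51 did not and 0 reversed a direction whose interval excluded 0, and 5 numbers of regions, set against 2535. With at least 200 bp shared between peaks there were 2474 regions. The E. coli MVs median against mock, near 0, took both signs. In each list the 3 medians of the log2 ratio are E. coli MVs to mock, then V. cholerae MVs to mock, then V. cholerae MVs to E. coli MVs, while other values follow the order mock, E. coli MVs and V. cholerae MVs. Over 5 kb from every TSS, there were 3631 regions and the E. coli MVs FAIRE share was 41.4%. Over 50 kb, there were 371 regions, the medians were -0.14, -0.59 and -0.41, FAIRE shares 9.70%, 25.6% and 27.0%, widths 699 bp, 1028 bp and 888 bp, and signal 36.1 after E. coli MVs and 23.8 after V. cholerae MVs. With TSSs of protein-coding genes only, there were 4210 regions, the medians were 0.11, -0.21 and -0.21, widths 782 bp, 1249 bp and 1109.5 bp, and signal 45.6 and 35.4 with the MVs. With peaks at least 8-fold over input, there were 882 regions, the medians were 0.067, -0.21 and -0.18, widths 1118 bp and 1069 bp with the MVs, and signal after V. cholerae MVs 33.0. With at least 20 mock tags, the medians were -0.13, -0.58 and -0.37, and FAIRE shares 19.8% in mock and 40.9% after V. cholerae MVs. With a mean signal of at least 60, chosen after seeing the data, the medians were 0.15, -0.16 and -0.24 and FAIRE shares 24.4%, 53.8% and 50.8%. Scaled to the tags in all called peaks, the medians were -0.48, -0.94 and -0.38, scaled to the median of all shared regions -0.44, -0.87 and -0.39, and per 1000 bp of called peak -0.49, -0.71 and -0.19. With at least 200 bp shared with the FAIRE peak, the shares were 14.0% in mock and 33.5% after V. cholerae MVs, and with FAIRE peaks at least 8-fold over input they were 1.03%, 11.2% and 3.51%. The cause of these shifts was not tested, other than that fewer or more regions or peaks entered by construction. No paired analysis was possible because the groups hold 1 library each. The low depth of mock, with a median of 12 tags per distal region, limits the ratios of single regions.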
